A study of Mus musculus with 6 samples.

Results

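WT progenitors that started 4 days of re-culture as DN1 or as DN2a cells were compared across all genes. The comparison held 30414 cells, 10925 from the DN1 start and 19489 from the DN2a start, of 60671 cells kept in the whole series of 6 libraries. Both groups came from C57BL/6 mice homozygous for a YFP reporter allele at Bcl11b (Bcl11b YFP/YFP, called WT), and both therefore carried the reporter. Bone marrow of mice 2 to 4 months old, male and female combined and pooled from 6 to 8 animals, was enriched for CD117 and grown on OP9-DL1 cells, a bone marrow stromal line that displays the Notch ligand DL1. DN1 cells were sorted as CD44+CD25- and DN2a cells as CD44+CD25+ without Bcl11b-YFP, each was returned to OP9-DL1, and both were harvested after the same 4 days. The study's methods name Flt3-L and IL-7 for all its T-cell cultures. They name IL-7, IL-2, SCF and IL-15 for a group of experiments that includes this single-cell one. The labels name no cytokine. RNA of fixed cells was read by combinatorial indexing of single cells, labelled as nuclear RNA. The names DN1 and DN2a below are thus the states at the start, and the libraries hold whatever those cells had become. Libraries of a second genotype, ΔTE, whose Bcl11b enhancer is deleted on both alleles and whose Bcl11b starts late, were used at the end only to set the same step beside the WT step.

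Development of T cells begins with DN1 progenitors, which still hold myeloid, dendritic and innate lymphoid options and express factors such as PU.1 (Spi1), Bcl11a and Mef2c. Notch signals then bring cells to DN2a, when CD25 (Il2ra), the receptor chain for IL-2, appears, and later to DN2b, when Bcl11b is switched on and the cells commit to the T lineage. CD3 chains, the parts of the T-cell receptor that carry its signal into the cell, and the Rag and TdT enzymes that cut and extend receptor genes accumulate along the same path.

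After 4 days, cells of the DN2a start held more RNA of the CD3 genes, of Bcl11b, Thy1, Lef1 and Ets1 and of the receptor recombination genes Dntt and Rag2 than cells of the DN1 start. Cd3g lay at 101 CPM (UMI counts scaled to 1000000 per library) in the DN1 start and at 359 CPM in the DN2a start. Cells of the DN1 start held more RNA of granulocyte, monocyte and dendritic genes and of the progenitor factors Mef2c, Lmo2, Bcl11a and Spi1. Mpo, the peroxidase of granulocyte precursors, was 6.12-fold lower in the DN2a start. Each gene named here, with Cd3d, Cd3e and Cd3g among the CD3 genes, was at least 2-fold apart with and without stromal cells and with and without a limit on mitochondrial RNA. A larger set of genes, enriched in cells marked by stromal genes, was higher in the DN2a start when that limit was kept and stromal cells were left in. Most of this set was not called when either was changed.

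Each start was 1 library, spread over 3 reverse-transcription wells that are technical parts of 1 culture, so that no difference had a replicate and none was tested. No barcode was shared between the libraries, which sat in different wells. The cells held 4653789 UMIs (unique molecular identifiers, 1 per captured RNA molecule) outside mitochondrial genes in the DN1 start and 7773877 in the DN2a start, and medians of 462 and 386 UMIs and 329 and 305 genes per cell. A level, in CPM, is the share of a gene in the UMIs outside mitochondrial genes. Ratios are DN2a start to DN1 start on the log2 scale, with a 95% exact interval of 2 Poisson counts in parentheses, which covers counting error only. A gene was called where the mean of both levels was at least 10 CPM, the ratio at least 2-fold and all 3 wells of 1 library lay beyond all 3 wells of the other. Well, library and culture cannot be told apart.

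The libraries differed in the shares of cells marked by stromal genes and by granulocyte and monocyte genes. Cells with at least 2 UMIs on a list of 23 stromal genes (collagens, Bgn, Fn1, Cxcl12, Kitl) made up 3.43% of the DN1 start (95% exact interval 3.10% to 3.79%) and 10.7% of the DN2a start (10.3% to 11.1%). Their share was 2.38% to 4.83% in the wells of the DN1 start and 10.0% to 11.8% in those of the DN2a start. They gave 4.60% and 14.1% of the UMIs. The limit of 30% mitochondrial UMIs removed 35.3% of the cells of the DN1 start and 2.59% of those of the DN2a start. Among the 5949 cells of the DN1 start above this limit 27.3% were stromal-marked, and with no limit the shares were 11.9% (11.4% to 12.3%) in the DN1 start and 11.7% (11.3% to 12.2%) in the DN2a start. Within each range of mitochondrial share the DN2a start had the higher share of stromal-marked cells, with 1.56% against 9.25% at 10 to 20%, 4.41% against 16.1% at 20 to 30% and 27.3% against 51.0% above 30%. Cells with at least 2 UMIs on the list of 31 granulocyte and monocyte genes went the other way, with 8.22% of the DN1 start (7.71% to 8.75%) and 2.60% of the DN2a start (2.38% to 2.83%), and 7.47% and 2.56% with no mitochondrial limit. That list includes Cyba, which many blood cells make and which gave 191 of its 431 CPM in the DN2a start. The marked share is thus no count of myeloid cells.

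**Figure D1:**
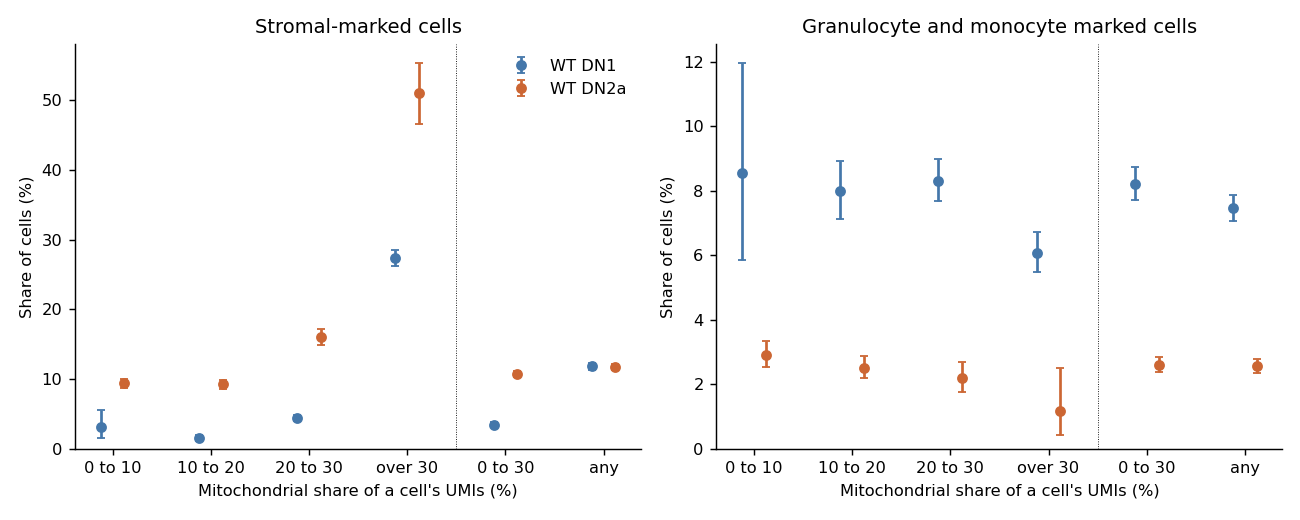
Share of cells (%, y axis) with at least 2 UMIs on the stromal list (left) or the granulocyte and monocyte list (right) by the mitochondrial share of the UMIs of a cell (x axis) in WT DN1 (blue) and WT DN2a (orange), with 95% exact binomial bars for counting error. The stromal shares of the libraries differ at 0 to 30% and meet at 11.9% and 11.7% when cells of any mitochondrial share are counted, while the granulocyte and monocyte shares stay apart in every range. The granulocyte and monocyte list includes Cyba, which many blood cells make, so its share is no count of myeloid cells.

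Of 28048 genes, 9453 passed the level of 10 CPM, and their median log2 ratio was -0.01. By the call rule 427 genes (4.52% of those tested) were higher and 88 (0.931%) lower in the DN2a start. Of the 427 higher genes, 372 (87.1%) were stromal-enriched, meaning at least 2-fold higher in stromal-marked cells than in the other cells of both libraries pooled, against 12.2% of all genes tested. Without the stromal-marked cells 85 of 9066 genes (0.938%) were higher and 108 (1.19%) lower, and 67 of the 427 and 70 of the 88 were called again in the same direction. With no mitochondrial limit 62 of 9642 genes (0.643%) were higher and 76 (0.788%) lower. With neither the limit nor stromal-marked cells 75 of 9067 genes (0.827%) were higher and 104 (1.15%) lower. In all 4 of these settings 52 genes were higher, 1 of them stromal-enriched, and 62 were lower, 7 of them stromal-enriched. Genes near the limit were many, with 57 called genes at 2.0 to 2.2-fold higher and 70 others with wells apart at 1.8 to 2.0-fold. Genes named below for being among these 52 or 62, and members of lists beyond the naming rule, were chosen after their values were seen.

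**Figure D2:**
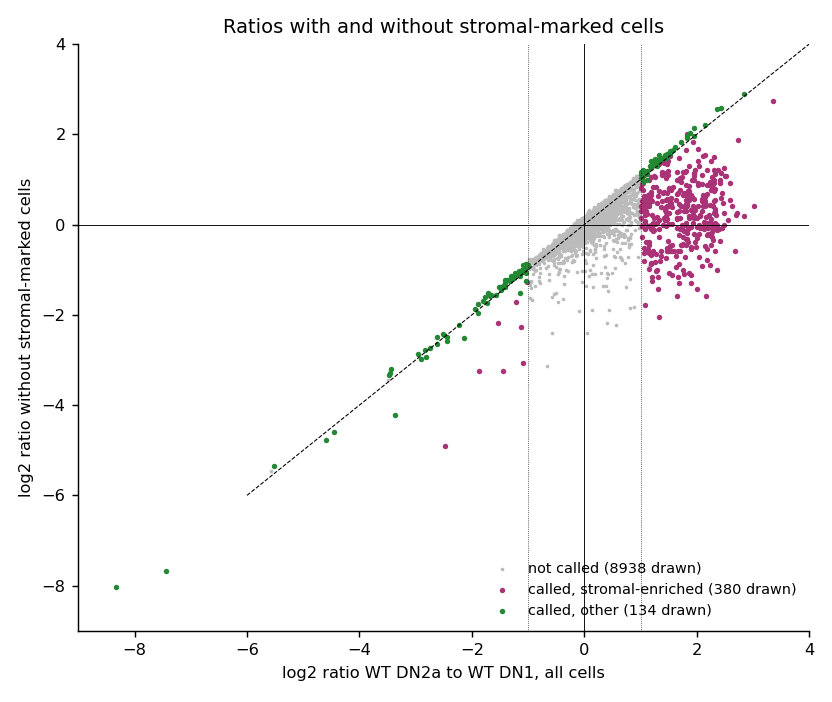
Log2 ratio of WT DN2a to WT DN1 for the genes tested, in all kept cells (x axis) and without stromal-marked cells (y axis). Dotted lines mark 2-fold and the dashed line marks equal ratios. Called genes that are not stromal-enriched (green) stay near the dashed line, whereas most stromal-enriched called genes (purple) lie to the right of 1 on the x axis and around 0 on the y axis. 1 tested gene, Ngp, has no UMI in WT DN2a and is not drawn.

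Genes of the sort gates came first. Il2ra encodes CD25, which cells sorted as DN1 lacked at their surface. It stood at 2085, 2165 and 2130.2 CPM in the wells of the DN1 start and 3856, 3934 and 4020.4 CPM in those of the DN2a start. The wells did not overlap, and the log2 ratio of 0.89 (0.86 to 0.92) stayed short of 2-fold, with 1.01 (0.97 to 1.04) without stromal-marked cells. Cd44, the adhesion receptor that both gates required, was at 259 and 146 CPM, a log2 ratio of -0.83 (-0.95 to -0.71) with wells apart. Kit, the SCF receptor used for enrichment, was at 306 and 258 CPM, with -0.25 (-0.35 to -0.15), and -0.13 (-0.23 to -0.03) without stromal-marked cells. Il7r, the IL-7 receptor chain, was at 87.2 and 139 CPM, with 0.68 (0.51 to 0.84). In all kept cells none of these 4 met the call rule, while Il2ra passed 2-fold without stromal-marked cells.

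Thy1, a surface protein of T-lineage cells, was called. Its wells held 201, 222 and 246 CPM in the DN1 start and 552, 582 and 578 CPM in the DN2a start. The library as a whole was 2.53-fold higher, with 1.34 (1.24 to 1.44) on the log2 scale. The WT DN2b library was higher again at 859 CPM. Of the 16 listed surface markers of DN stages 14 were tested, 2 were higher and 1 lower, and the median log2 ratio was -0.06. The other higher marker was Ly6a (Sca-1), at 33.5 and 68.8 CPM, which was stromal-enriched and was not called without stromal-marked cells (0.52, interval 0.21 to 0.83). The lower one was Flt3, described with the progenitor genes.

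Bcl11b, the factor that seals T-lineage commitment, was about 2-fold higher in the DN2a start, although cells with Bcl11b-YFP had been gated out of that start. Its wells held 339, 299 and 280.1 CPM in the DN1 start and 636, 607 and 626 CPM in the DN2a start, with no overlap. The log2 ratio was 1.04 (0.95 to 1.13), close to the 2-fold limit, and 1.16 (1.07 to 1.24) without stromal-marked cells. With cells of at most 20% mitochondrial UMIs it was 1.11, and within 20 to 30% it was 0.91, under 2-fold. The WT DN2b library, started from Bcl11b-YFP+ cells, held 1104 CPM.

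Of 22 listed T-lineage transcription factors 20 were tested, 4 were higher and 0 lower, and the median log2 ratio was 0.21. Lef1, a partner of β-catenin that acts beside TCF1, stood at 8.45, 10.8 and 7.64 CPM in the DN1 start and 28.2, 25.7 and 22.8 CPM in the DN2a start, with 1.53 (1.04 to 2.05). Ets1, needed for T-cell survival and receptor gene activity, stood at 23.8, 23.8 and 28.5 CPM and 76.3, 68.6 and 74.6 CPM, which is 2.82-fold over the library. The wells of both genes were apart. Id3, an inhibitor of E proteins, was stromal-enriched. It was at 18.0 and 70.0 CPM (1.95, interval 1.62 to 2.30), and at 1.12 (0.59 to 1.67) without stromal-marked cells, where it was still called. With no mitochondrial limit the log2 ratio of Id3 was 0.52.

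The factors that start the T program differed less. Tcf7 (TCF1), the first Notch-induced T-lineage factor, was at 375, 416 and 432 CPM and 547, 565 and 573 CPM, with 0.45 (0.37 to 0.53). Gata3 was at 114, 113 and 114 CPM and 181, 174 and 187 CPM, with 0.67 (0.52 to 0.81). For both genes every well of the DN2a start lay above every well of the DN1 start, at less than 2-fold. Runx1 had overlapping wells and 0.11 (0.07 to 0.15), while Runx2 (-0.28, interval -0.39 to -0.18), Runx3 (-0.38, interval -0.45 to -0.31) and Ikzf1 (-0.19, interval -0.25 to -0.13) lay slightly lower in the DN2a start. Without stromal-marked cells Ikzf1 was at -0.07 (-0.13 to -0.01) and Runx2 at -0.42. Myb, which sustains early T-cell precursors, was at 0.42 (0.36 to 0.48), and Tox, a factor of T and innate lymphoid development, at -0.25 (-0.31 to -0.19).

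The CD3 chains and several proximal signalling genes were higher in the DN2a start. Of 22 listed genes 17 were tested, 9 were higher and 0 lower, and the median log2 ratio was 1.00, against -0.01 for all genes. Their summed level was 2079.6 CPM in the DN1 start and 2976 CPM in the DN2a start. Without stromal-marked cells 10 of the 17 were called higher and the median was 1.12.

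Cd3d, Cd3e and Cd3g encode the δ, ε and γ chains of CD3. The wells of Cd3g held 104, 107 and 95.2 CPM in the DN1 start and 375, 354 and 351 CPM in the DN2a start, with 1.82 (1.68 to 1.97), or 3.54-fold. Those of Cd3d held 9.21, 6.49 and 7.64 CPM and 41.4, 41.6 and 41.6 CPM, with 2.43 (1.93 to 2.96), or 5.37-fold. Cd3e was at 7.74 and 29.7 CPM, with 1.94 (1.43 to 2.49). In all 3 genes the libraries were well apart, and the WT DN2b library was higher than both, at 683 CPM for Cd3g, 110.0 CPM for Cd3d and 49.1 CPM for Cd3e. Lineage-marker antibodies, CD3ε among them, had been used to exclude cells before re-culture. Cd247, the ζ chain, was at 75.2, 74.2 and 61.1 CPM and 184, 179 and 158 CPM, with 1.33 (1.16 to 1.51).

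Cd3g and Cd3d lie head to head, and their promoters are shown because both genes were among the clearest of the higher ones. The windows run from 250 bases before to 50 bases after the RefSeq start (build GRCm38.p6), 5′ to 3′ on the strand of the gene, with capitals for matches, on either strand, to 5 motifs of 6 bases. For PU.1 the letters searched were GAGGAA. For TCF1 and LEF1 they were CTTTGA, and for GATA factors AGATAA was used. Runx factors were searched as TGTGGT, while the letters chosen for E proteins were CAGGTG. None of the 13 matches in the 4 windows shown here overlapped another. Cd3d lies at chr9:44981536-44981835 on the + strand and holds the TCF1 and LEF1 letters on both strands, besides PU.1 and E protein letters. Cd3g lies at chr9:44980382-44980681 on the - strand, 854 bases away, and holds GATA and E protein letters.
Cd3d: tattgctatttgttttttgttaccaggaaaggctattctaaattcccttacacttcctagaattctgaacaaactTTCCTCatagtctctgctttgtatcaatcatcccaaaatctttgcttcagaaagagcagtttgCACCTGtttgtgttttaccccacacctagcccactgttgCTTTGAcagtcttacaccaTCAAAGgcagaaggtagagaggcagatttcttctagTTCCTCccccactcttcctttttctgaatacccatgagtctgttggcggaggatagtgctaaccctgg
Cd3g: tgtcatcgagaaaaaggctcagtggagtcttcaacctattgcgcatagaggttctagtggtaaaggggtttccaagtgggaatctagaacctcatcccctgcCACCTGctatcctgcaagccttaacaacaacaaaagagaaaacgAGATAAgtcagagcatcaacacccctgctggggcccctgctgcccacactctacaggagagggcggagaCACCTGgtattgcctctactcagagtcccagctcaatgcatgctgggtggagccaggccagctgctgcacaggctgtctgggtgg
Promoters were found for 39 of the 55 higher genes that were not stromal-enriched, for 67 of the 88 lower genes and for 7596 of the 9453 tested. The TCF1 and LEF1 letters stood in 9 of the 39 (23.1%), 12 of the 67 (17.9%) and 13.8% of all tested. The GATA letters stood in 15.4%, 14.9% and 7.29%, the Runx letters in 15.4%, 14.9% and 14.5%, and the E protein letters in 30.8%, 26.9% and 19.2%, in the same order. In these shares a gene counts if any of its promoters holds the letters. Counted by single promoter, an unlike measure, the shares among all 32851 promoters of the table were 16.0%, 11.2%, 16.8% and 20.2% for TCF1 and LEF1, GATA, Runx and E protein letters. These are matches of letters and not sites of binding.

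**Figure D3:**
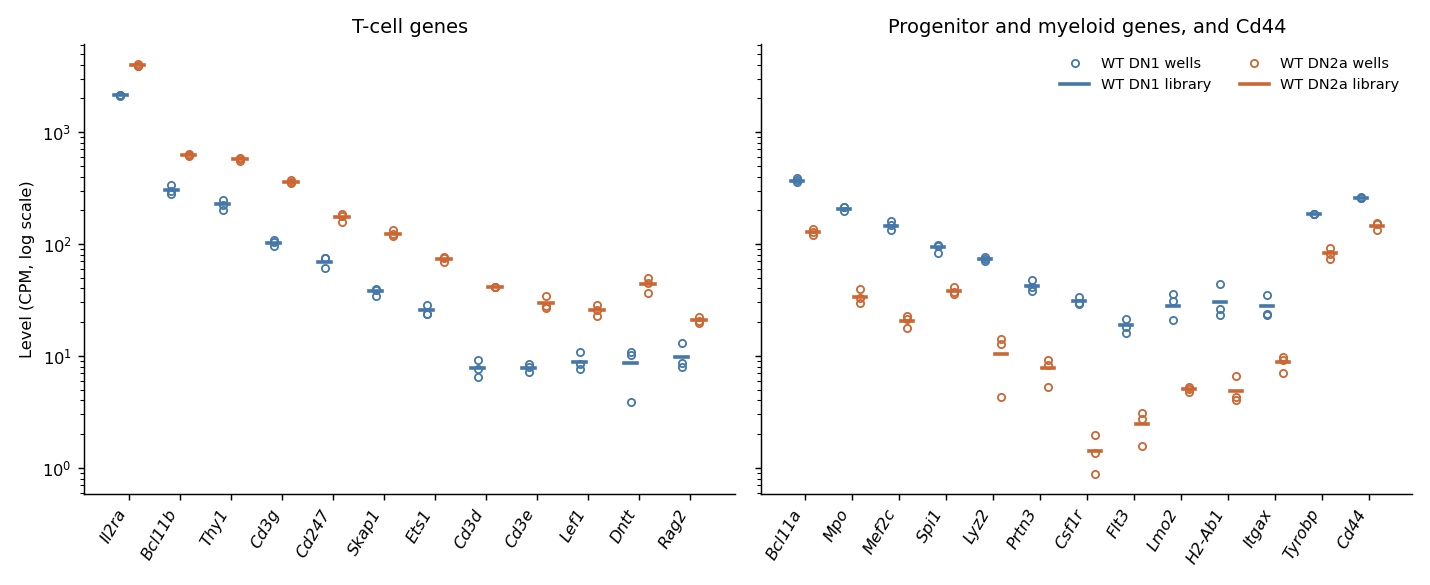
Level (CPM, log scale, y axis) of T-cell genes (left) and of progenitor and myeloid genes and Cd44 (right) in the 3 wells of WT DN1 (blue circles) and of WT DN2a (orange circles), with bars for the whole library. The wells of the libraries do not overlap for any gene drawn, and the ratio is smallest for Cd44 (-0.83) and Il2ra (0.89), which did not reach 2-fold.

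Kinases and adaptors downstream of the receptor split by member. Skap1, an adaptor for integrin activation, was at 38.4, 34.6 and 39.2 CPM and 133, 118 and 123 CPM, with 1.72 (1.49 to 1.96). Themis, which tunes receptor signals in thymocytes, was at 23.2 and 54.9 CPM (1.24, interval 0.94 to 1.56), Rasgrp1, an activator of Ras, at 39.8 and 90.2 CPM (1.18, interval 0.95 to 1.42), and Trat1, a receptor-associated adaptor, at 1.00 (0.86 to 1.15), just at 2-fold. Lck, the kinase that acts first at the receptor, was at 159 and 242 CPM, with 0.61 (0.48 to 0.73) and wells apart. Its relative Fyn had overlapping wells and -0.03 (-0.15 to 0.09), and Lcp2 (SLP-76) was at -0.22 (-0.34 to -0.11). Without stromal-marked cells Lcp2 was at -0.09, with an interval of -0.21 to 0.03. Ptprc (CD45), carried by all blood cells, was level at 0.01 (-0.05 to 0.07). Ptcra, which pairs with the β chain in the pre-T-cell receptor, had only 6 and 24 UMIs, too few to place (1.26, interval -0.07 to 2.84).

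Of 10 receptor recombination genes 9 were tested and 3 were higher, with a median log2 ratio of 0.36. Dntt encodes TdT, which adds bases at receptor gene joints. Its wells held 3.84, 10.8 and 10.2 CPM and 36.2, 49.7 and 44.4 CPM, with 2.36 (1.88 to 2.87), or 5.12-fold. Rag2, the partner of Rag1 in the recombinase, was at 13.1, 7.93 and 8.66 CPM and 19.8, 20.3 and 22.4 CPM, with 1.11 (0.62 to 1.62). Rag1 itself was under the level filter, at 3.01 and 16.9 CPM, with 2.49 (1.69 to 3.40) and wells apart, and was called without stromal-marked cells. Lig4, the ligase that closes the breaks, was at 8.81 and 21.6 CPM (1.29, interval 0.79 to 1.82). Arpp21, a thymocyte RNA-binding protein, was at 692 and 1162 CPM (0.75, interval 0.69 to 0.81), while the general repair genes Xrcc4 (-0.04, interval -0.19 to 0.12) and Prkdc (-0.07, interval -0.19 to 0.05) had overlapping wells.

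Among higher genes that were not stromal-enriched the highest ratio belonged to a gene outside these families. 5830411N06Rik, also named Scart2, and Cd163l1, also named Scart1, are scavenger receptor genes known from γδ T cells. 5830411N06Rik stood at 12.3, 11.5 and 4.58 CPM in the DN1 start and 69.2, 64.5 and 56.2 CPM in the DN2a start, with 2.84 (2.38 to 3.34), or 7.17-fold, and at 315 CPM in WT DN2b. Cd163l1 stood at 11.5, 13.7 and 8.66 CPM and 45.0, 53.7 and 45.2 CPM, with 2.14 (1.72 to 2.59). Of 15 listed γδ program genes, 10 were in the files and 6 were tested, and 3 were higher. The third of these, Maf, was stromal-enriched and was at 0.15 (-0.18 to 0.48) without stromal-marked cells. Sox13 (0.39, interval 0.08 to 0.71) and Etv5 (0.24, interval -0.06 to 0.53) had overlapping wells.

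Inhibitory and cytokine-response genes were among the 52 as well. Pdcd1 (PD-1) was at 14.6, 18.0 and 12.7 CPM and 48.5, 53.1 and 55.4 CPM, with 1.82 (1.45 to 2.21). Ctla4 was at 18.4, 26.7 and 29.0 CPM and 64.4, 76.7 and 56.9 CPM, with 1.39 (1.10 to 1.69). Socs1, a brake on cytokine receptors, was at 29.7 and 68.2 CPM (1.20, interval 0.93 to 1.48). Further genes of the 52 were the phosphatase Ptprf (1.95, interval 1.64 to 2.29), Hsd11b1, which reactivates glucocorticoids (1.88, interval 1.44 to 2.34), the thyroid hormone receptor Thrb (1.60, interval 1.21 to 2.02), Mcub, a subunit of the mitochondrial calcium channel (1.58, interval 1.15 to 2.04), and Gfra1, a receptor for GDNF (1.18, interval 1.00 to 1.36). The smallest ratios of the 52 were those of Ms4a4b (1.00, interval 0.45 to 1.59) and the kinase Txk (1.01, interval 0.63 to 1.40).

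Progenitor factors lay lower in the DN2a start. Of 22 listed genes 18 were tested, 5 were lower and 1 higher, 15 had a ratio under 0, and the median log2 ratio was -0.59. Bcl11a, a factor of lymphoid progenitors and relative of Bcl11b, stood at 385, 373 and 355 CPM in the DN1 start and 128, 137 and 121 CPM in the DN2a start, with -1.52 (-1.63 to -1.40), or 2.86-fold lower. Mef2c, which acts in lymphoid and myeloid progenitors, stood at 149, 161 and 132 CPM and 22.5, 21.3 and 17.7 CPM, with -2.83 (-3.09 to -2.58), or 7.12-fold lower. Spi1, the PU.1 gene, stood at 82.2, 95.8 and 98.3 CPM and 41.4, 36.8 and 35.7 CPM, with -1.30 (-1.52 to -1.08). In each of the 3 the lowest well of the DN1 start was above the highest of the DN2a start.

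Lmo2, a bridging factor of stem and progenitor cells, was at 30.7, 36.0 and 20.9 CPM and 5.29, 5.07 and 4.71 CPM, with -2.49 (-3.04 to -1.96). Flt3, the receptor for Flt3 ligand that marks early progenitors, was at 16.1, 18.0 and 21.4 CPM and 3.09, 2.70 and 1.57 CPM, with -2.95 (-3.75 to -2.22). Cd34 (-0.92, interval -1.09 to -0.74) and Meis1 (-0.79, interval -0.94 to -0.64) had wells apart without reaching 2-fold. Several progenitor genes differed little, with Lyl1 at -0.09 (-0.23 to 0.05), Hhex at -0.36 (-0.62 to -0.10), Etv6 at -0.36 (-0.40 to -0.32) and Erg at 0.06 (-0.03 to 0.15). The higher one, Mecom, was stromal-enriched, at 6.88 and 14.5 CPM, and its log2 ratio was 0.25 (-0.75 to 1.31) without stromal-marked cells and -0.15 with no mitochondrial limit.

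Granulocyte and monocyte genes had the lowest ratios. Of 31 listed genes 17 were tested, 12 were lower and 0 higher, and the median log2 ratio was -2.61. Their summed level was 1129.9 to 1156 CPM in the wells of the DN1 start and 428 to 433 CPM in those of the DN2a start. In such sums fewer cells of a type and less RNA per cell cannot be told apart. The granule genes Mpo and Prtn3 are made by early granulocyte and monocyte precursors. The wells of Mpo held 216, 215 and 196 CPM and 32.6, 29.7 and 39.7 CPM, with -2.61 (-2.82 to -2.42), or 6.12-fold lower, and those of Prtn3 held 37.6, 47.6 and 41.2 CPM and 5.29, 9.12 and 8.25 CPM, with -2.45 (-2.89 to -2.02). Elane, the elastase of the same granules, had 56 UMIs in the DN1 start and 1 in the DN2a start and was under the level filter. Ctsg, another granule protease, was at 53.3 and 31.3 CPM (-0.77, interval -1.03 to -0.51) and did not reach 2-fold.

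Promoters of Mpo and Prtn3 are shown because both granule genes were among the lower ones. A part of PU.1 in their lower levels was not tested. Capitals mark the same 5 motifs as above. The Mpo window lies at chr11:87793534-87793833 and that of Prtn3 at chr10:79879417-79879716, both on the + strand of GRCm38.p6. Mpo holds the PU.1 letters GAGGAA in 2 places and the TCF1 and LEF1 letters on both strands, and Prtn3 holds the PU.1 letters once.
Mpo: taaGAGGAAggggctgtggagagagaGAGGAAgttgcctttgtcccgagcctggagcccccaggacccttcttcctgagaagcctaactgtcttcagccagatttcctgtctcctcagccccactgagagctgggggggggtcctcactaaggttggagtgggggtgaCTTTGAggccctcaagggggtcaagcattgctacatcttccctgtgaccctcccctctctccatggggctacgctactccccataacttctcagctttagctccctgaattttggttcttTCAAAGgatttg
Prtn3: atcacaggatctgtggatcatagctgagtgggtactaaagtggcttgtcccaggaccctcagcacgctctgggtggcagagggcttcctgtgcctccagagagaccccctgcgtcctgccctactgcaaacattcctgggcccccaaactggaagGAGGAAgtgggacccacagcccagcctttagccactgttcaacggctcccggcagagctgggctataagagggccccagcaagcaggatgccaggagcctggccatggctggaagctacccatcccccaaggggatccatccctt
The PU.1 letters stood in a promoter of 33 of 67 lower genes (49.3%), of 14 of 39 higher genes that were not stromal-enriched (35.9%) and of 30.4% of all tested genes. Counted by single promoter, an unlike measure, they stood in 28.3% of all promoters of the table.

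Several genes of later granulocytes and of monocytes were close to absent from the DN2a start. S100a8 and S100a9, a pair of neutrophil calcium-binding proteins, had 193 and 311 UMIs in the DN1 start and 1 and 3 in the DN2a start, with log2 ratios of -8.33 (-13.64 to -5.84) and -7.44 (-9.72 to -5.88). Ngp, a neutrophil granule protein, had 96 and 0 UMIs and was at least 53.5-fold lower when the zero is set to 3 counts for that library, with a counting interval of the log2 ratio that ended at -5.41. Csf1r, the receptor that directs monocytes and macrophages, was at 29.2, 29.5 and 33.6 CPM and 0.882, 1.35 and 1.96 CPM, with -4.46 (-5.49 to -3.58). Cybb, a subunit of the phagocyte oxidase, was at 28.1 and 1.16 CPM (-4.60, interval -5.76 to -3.63). Lyz2 (lysozyme) was at 72.9, 76.4 and 70.8 CPM and 14.1, 12.8 and 4.32 CPM, with -2.81 (-3.18 to -2.46). Cd300a, an inhibitory receptor (-3.48, interval -4.11 to -2.90), and Tgfbi, a matrix protein of macrophages (-3.36, interval -4.00 to -2.77), were lower too, as were Irf8, a factor of monocytes and dendritic cells (-1.41, interval -1.88 to -0.95), and Csf2rb, the shared receptor chain for GM-CSF, IL-3 and IL-5 (-1.16, interval -1.53 to -0.79). Adgrl4 (-5.52, interval -7.42 to -4.12), an adhesion receptor known from endothelium, and the nuclear factor Dach1 (-3.45, interval -4.18 to -2.78) were lower without belonging to the list. Cyba, the partner of Cybb that many blood cells make, was at 221 and 191 CPM (-0.21, interval -0.32 to -0.09), and Cebpb, which was stromal-enriched, at 0.18 (-0.22 to 0.58). Without stromal-marked cells Cyba was at -0.10 (-0.22 to 0.02).

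The 898 cells of the DN1 start marked by this list also held progenitor and T-lineage RNA. Relative to their own UMIs they held 261 CPM of Mef2c, against 133 CPM in the other 10027 cells of that library, and 616 CPM of Lyn, a myeloid kinase, against 225 CPM. Bcl11a was alike in both, at 372 and 369 CPM. They held less of Il2ra, at 1215 against 2230 CPM, and of Bcl11b, at 169 against 317 CPM. The 507 marked cells of the DN2a start held 3341 CPM of Il2ra, against 3963 CPM in the other cells of that library. There Bcl11b was at 477 against 627 CPM, Cd3g at 266 against 363 CPM and Mef2c at 38.6 against 19.8 CPM. Of the summed level of the list, Cyba gave 221 of 1145 CPM in the DN1 start and 191 of 431 CPM in the DN2a start. When marked cells were left out of both libraries, the log2 ratio of Mef2c was -2.75, that of Bcl11a -1.53, that of Lmo2 -2.29 and that of Flt3 -2.78. Other genes outside the list moved more, with Dach1 at -1.91 in place of -3.45 and H2-Ab1 at -1.84 in place of -2.62. H2-Aa was at -1.57 in place of -2.22 and H2-Eb1 at -1.98 in place of -2.91. Lower calls then numbered 47 in place of 88, and 437 genes were higher. The list itself gave 12 of the 88, and its level is cut by leaving those cells out.

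Dendritic cell and MHC class II genes lay lower as well. Of 18 listed genes 9 were tested and 5 were lower, with a median log2 ratio of -1.69. The MHC class II chains H2-Ab1 and H2-Aa present antigen to T cells. H2-Ab1 stood at 43.8, 23.1 and 26.0 CPM and 6.61, 4.06 and 4.32 CPM, with -2.62 (-3.18 to -2.10), and H2-Aa at 28.8 and 6.17 CPM, with -2.22 (-2.73 to -1.74). H2-Eb1 was at -2.91 (-3.69 to -2.20) and Itgax, the CD11c gene, at 28.1 and 8.75 CPM (-1.69, interval -2.13 to -1.25), although CD11c was among the antigens used to exclude cells before re-culture. The summed level of the list hardly differed, at 735 and 697 CPM, of which Tcf4, an E protein gene that lymphoid cells also express, made up 387 and 483 CPM. Ccr7, a homing receptor, was the other way, at 14.6 and 28.0 CPM with overlapping wells (0.94, interval 0.54 to 1.36).

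Genes of innate lymphoid and natural killer cells lay on both sides of 0. Of 30 listed genes 13 were tested, 2 were higher and 1 lower, and the median log2 ratio was 0.18. Zbtb16, the PLZF gene that marks innate lymphoid precursors, was at 361, 336 and 336 CPM in the DN1 start and 272, 285 and 276 CPM in the DN2a start, with -0.30 (-0.39 to -0.21) and wells apart. Fcer1g, a signalling chain of innate cells, was at -0.33 (-0.46 to -0.19), and its relative Tyrobp (DAP12) was called, at 186, 184 and 183 CPM and 80.7, 92.6 and 72.6 CPM with -1.16 (-1.31 to -1.01). Gzma, a cytotoxic granule protease, was at 728 and 965 CPM (0.41, interval 0.35 to 0.46), whereas Gzmb was at 273 and 231 CPM (-0.24, interval -0.35 to -0.14). Without stromal-marked cells Zbtb16 was at -0.19, Fcer1g at -0.20, Gzmb at -0.12 and Gzma at 0.52. Rora, a nuclear receptor of type 2 innate lymphoid cells, was called at 38.7 and 79.8 CPM (1.04, interval 0.80 to 1.29) but was stromal-enriched, and its log2 ratio was 0.76 without stromal-marked cells and 0.15 with no mitochondrial limit. Id2, an inhibitor of E proteins, was also stromal-enriched, with 0.18 (-0.08 to 0.45) in all cells and -0.06 without the stromal-marked ones. Il2rb, the second chain of the IL-2 and IL-15 receptor, had 0 and 21 UMIs and was at least 4.19-fold higher when the zero is set to 3 counts for that library, with a log2 interval that began at 1.64, and Icos had 12 and 63 UMIs, both under the level filter.

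Of 16 genes of the receptors for IL-2, IL-7 and IL-15 and their signalling 14 were tested, 2 were higher and 1 lower, with a median of 0.14. The lower one was Il15ra, which presents IL-15, at 44.7 and 21.0 CPM (-1.09, interval -1.40 to -0.79). Socs3 was higher beside Socs1, but it was stromal-enriched and rested on 21 UMIs in the DN1 start. Of 22 mast, basophil, megakaryocyte and erythroid genes 5 were tested, and 1, the platelet integrin Itga2b, was lower (126 and 62.4 CPM, -1.02, interval -1.19 to -0.84), which was not called without stromal-marked cells (-0.91). The mast cell protease Cpa3 was at 517 and 682 CPM (0.40, interval 0.33 to 0.47).

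No gene of 13 tested Notch pathway genes was called, and their median log2 ratio was 0.07, with 7 above 0 and 6 under 0. Their list, which includes Tcf7, Gata3 and the sort marker Il2ra, had a summed level of 3604 CPM in the DN1 start and 5690 CPM in the DN2a start. Il2ra made up most of both sums, so that the sum is no measure of the list as a whole. Without stromal-marked cells 1 member was called higher. Notch1 was at 253, 249 and 263 CPM and 322, 359.9 and 344 CPM (0.42, interval 0.33 to 0.52), the target Hes1 at 0.28 (0.06 to 0.51), and the feedback targets Dtx1 and Nrarp at -0.21 (-0.43 to 0.01) and -0.39 (-0.67 to -0.12). Of 12 tested homing and adhesion genes 1 was called, S1pr1, which was stromal-enriched (2.30, interval 1.59 to 3.09, and 0.51 without stromal-marked cells).

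Cell cycle genes were not called, with 22 S phase genes at a median log2 ratio of 0.02 and 22 G2/M genes at 0.28. Of the G2/M genes 19 had a ratio above 0, such as Top2a at 885, 884 and 913 CPM and 1194, 1188 and 1195 CPM (0.41, interval 0.36 to 0.46) and Mki67 at 0.33 (0.27 to 0.39). None of 10 Bcl2 family genes was called, with Bcl2, the survival factor, at 1193 and 1552 CPM (0.38, interval 0.33 to 0.43). None of 9 genes of Polycomb repressive complex 2 was called, and Ezh2, its methyltransferase, was at 457 and 456 CPM with overlapping wells. None of 4 tested sex-linked transcripts was called (median -0.11). Of 10 immediate early and stress genes 3 were higher, namely Egr1, Jun and Jund, and none of these was called without stromal-marked cells, where their log2 ratios were 1.09, 0.78 and 0.95. Of 3 tested B lineage genes the higher one was Ebf1, which was stromal-enriched (1.70, interval 1.49 to 1.91, and -0.37 with no mitochondrial limit).

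**Figure D4:**
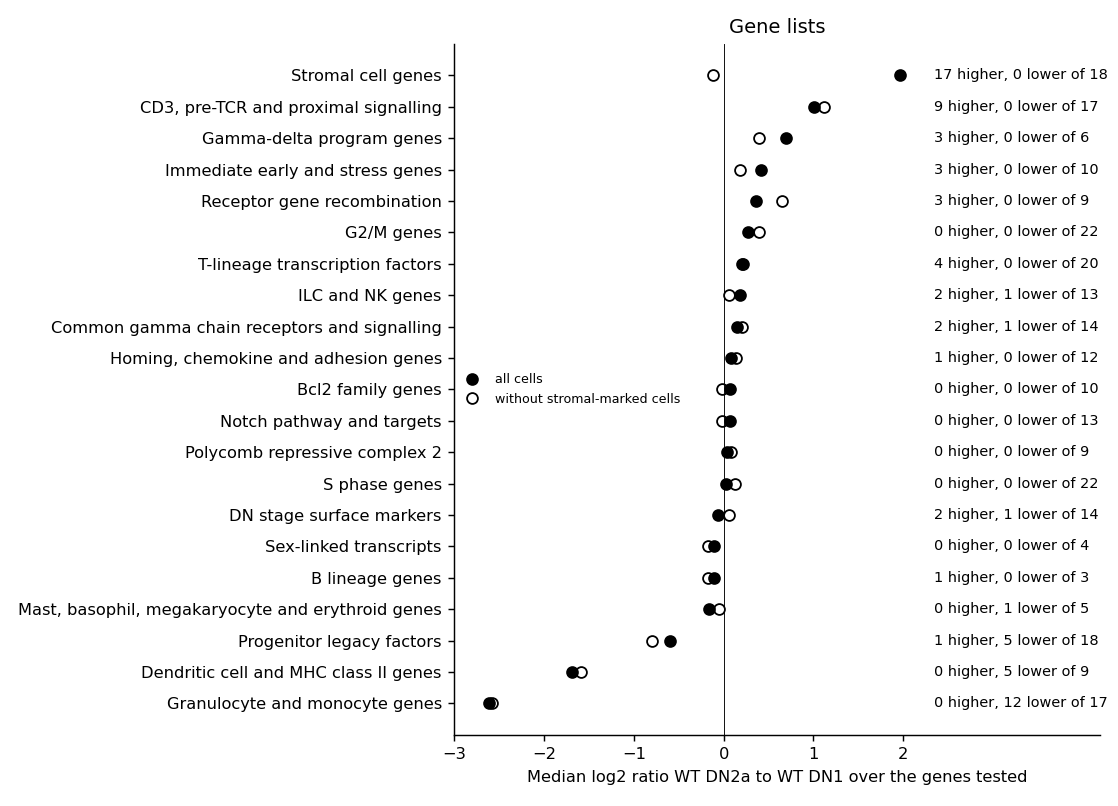
Median log2 ratio of WT DN2a to WT DN1 (x axis) over the tested genes of each list (y axis), in all kept cells (filled) and without stromal-marked cells (open), with the calls in all cells at the right. Granulocyte and monocyte genes lie lowest at -2.61, CD3 and signalling genes stand at 1.00, and stromal genes move from 1.97 to -0.12 when stromal-marked cells are left out.

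Stromal genes made the highest median of any list. Of 18 tested 17 were higher, all but Pdgfrb, and their median log2 ratio was 1.97. Bgn, a matrix proteoglycan, stood at 64.5, 79.3 and 200.1 CPM in the DN1 start and 638, 599 and 556 CPM in the DN2a start, with 2.24 (2.12 to 2.37). Its highest well of the DN1 start was also that with the highest share of stromal-marked cells, 4.83%, but Bgn belongs to the list that marks them. Cxcl12, a chemokine of marrow stroma, stood at 96.7 and 434 CPM (2.16, interval 2.02 to 2.31), and Kitl, which encodes SCF, at 26.6 and 142 CPM (2.41, interval 2.14 to 2.69). The summed level of the list was 1046 and 4008 CPM in all kept cells and 3631 and 4357 CPM with no mitochondrial limit. Without stromal-marked cells, which are defined by this list, it was 232 and 204 CPM. Stromal-enriched genes with high ratios included Osmr, a receptor for oncostatin M (10 and 170 UMIs, 3.35, interval 2.43 to 4.43), Fkbp10, a collagen chaperone (2.73, interval 1.94 to 3.63), Gas1 (2.59, interval 2.33 to 2.87) and the matrix protein Efemp1 (2.58, interval 1.96 to 3.27). The cultures were grown on stroma and passed through a mesh to reduce it, and the part of stromal cells in each ratio was not tested.

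Shares of cells gave the same order as the levels for the genes examined. Each cell was thinned to 200 UMIs outside mitochondrial genes, which left out no cell, and the stromal-marked cells serve as the type that should lack these genes. Their median UMI counts were 621 and 508 in the DN1 and DN2a starts, and those of the other cells 457 and 376. Il2ra had a UMI in 30.8% of the other cells of the DN1 start (95% exact interval 29.9% to 31.7%) and in 55.7% (55.0% to 56.5%) of those of the DN2a start, against 14.1% and 19.6% of stromal-marked cells. Bcl11b had one in 5.26% and 11.9% (stromal-marked 2.13% and 3.60%). Cd3g had one in 1.64% and 6.31% (stromal-marked 0.267% and 2.06%). Bcl11a had one in 7.18% and 2.52% (stromal-marked 3.47% and 0.624%), and Mef2c in 2.81% and 0.448% (stromal-marked 0.533% and 0.240%). Before thinning the shares in other cells were 46.0% and 72.9% for Il2ra, 10.2% and 19.9% for Bcl11b, 2.76% and 9.97% for Cd3g, 13.6% and 5.10% for Bcl11a and 5.35% and 0.810% for Mef2c. Lyz2, at 1.06% of other cells and 1.33% of stromal-marked cells in the DN1 start, did not exceed this background. For Il2ra, Bcl11b and Cd3g the stromal-marked cells of the DN2a start also had the higher share, so that the background was not equal in the libraries.

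The ΔTE libraries, which share no cells or controls with the WT libraries, hold the same step in a genotype with late Bcl11b. Among the 52 genes higher in all 4 settings 52 had a ΔTE ratio above 0 and 38 were at least 2-fold higher, and among the 62 lower genes 62 had a ratio under 0 and 47 were at least 2-fold lower. Over all tested genes 46.1% had a ΔTE ratio above 0, 4.00% were at least 2-fold higher and 1.03% at least 2-fold lower in ΔTE. Cd3g was at 2.36 (2.11 to 2.62) in ΔTE beside 1.82 in WT, Cd3d at 2.30 (1.54 to 3.14) beside 2.43, and Thy1 at 1.25 (1.15 to 1.34) beside 1.34. Mef2c was at -3.79 (-4.27 to -3.35) beside -2.83, Mpo at -2.15 (-2.43 to -1.89) beside -2.61, and Mpo, Mef2c and Bcl11a differed in the same direction in both genotypes. The differences between genotypes were not tested. The WT DN2b library lay beyond WT DN2a for 42 of the 52 and 46 of the 62, against 44.9% of all tested genes above WT DN2a and 55.1% under it, as for Cd163l1 (163 CPM) and Bcl11a (56.2 CPM), and it holds 1 library as well.

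**Figure D5:**
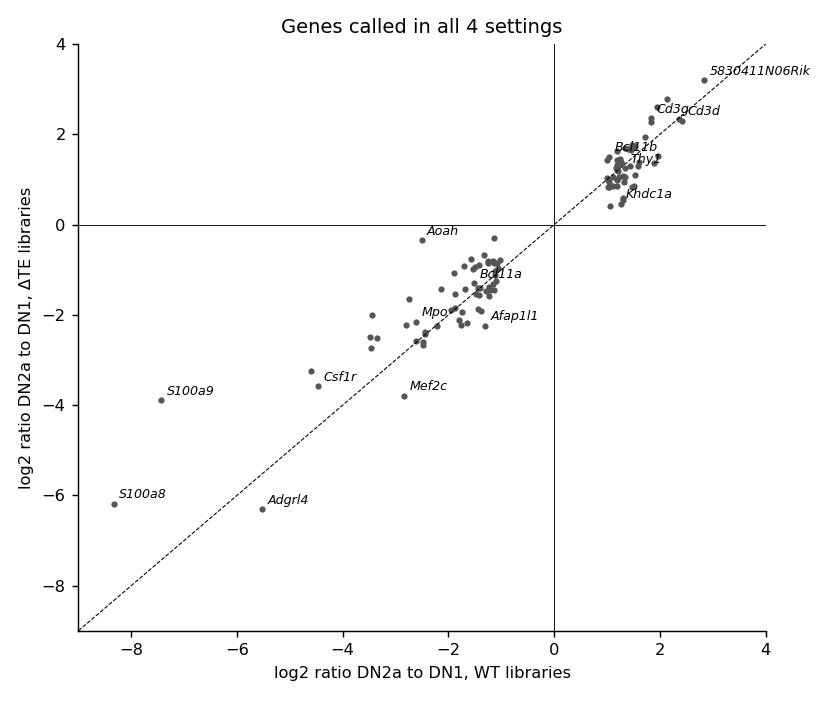
Log2 ratio of DN2a to DN1 in the WT libraries (x axis) and in the ΔTE libraries (y axis) for the genes called in all 4 settings, with equal ratios on the dashed line. All genes drawn lie on the same side of 0 in both genotypes. Ngp, with no UMI in WT DN2a, is not drawn.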

How the data were processed

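Single cells were read by sci-RNA-seq3, 1 library per condition. The authors deposited raw UMI counts per gene and cell; the submitters' processing notes name genome build mm9, and the aligner and annotation are not given in the sources used here. Cells were kept from 200 detected genes upward, up to 2000 UMIs and up to a mitochondrial UMI share of 30%, as in the study's methods, and no doublet caller was run. UMIs were summed per library and per reverse-transcription well, read from the barcodes, and scaled to CPM without mitochondrial genes, in Python 3.11.15 (numpy 2.4.6, pandas 2.3.3, scipy 1.17.1). TMM factors came from edgeR 4.0.16, with no test. The steps were tested on simulated data, in which 200 of 9453 genes were changed by 1.5 or 2 on the log2 scale, so changes near 2-fold were not simulated. 100% of these changes were called, 0% of the unchanged genes were, and 95.7% of the intervals held the true ratio. Wells were drawn with counting error only, so these shares do not cover variation between wells or cultures. Named were the sort markers, the 12 called genes with the highest and the 12 with the lowest ratio, up to 4 called in each direction and 4 others per list, and genes of the study's text. A few genes that the rule names are not reported here. The comparison, the 22 gene lists and the naming rule were chosen with earlier results of these data known. Alternatives were other limits on cells, levels and folds, other scalings, and cells or wells left out. Promoters came from RefSeq (GRCm38.p6), matched by symbol, and no coordinate of the deposited files was used.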

Additional observations from a re-analysis of the deposited data

Results flagged for a closer look

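Of 146 named genes with a ratio, 7 had the ratio on one side of 0 in WT and on the other in ΔTE, with both counting intervals clear of 0. With 1 library in each arm the difference between genotypes was not tested. Zbtb16 (PLZF) had a log2 ratio of -0.30 in WT and 0.29 in ΔTE, Tox -0.25 and 0.17, Fcer1g -0.33 and 0.26, and Gzmb -0.24 and 0.11. Ccr2, a chemokine receptor, had -0.58 and 0.58. Itga4 had -0.073 and 0.15, but 0.04 in WT without stromal-marked cells, and Suz12 0.10 and -0.11. Without those cells the WT ratios were -0.19 for Zbtb16, -0.13 for Tox, -0.20 for Fcer1g and -0.12 for Gzmb. Ccr2 was then at -0.46 and Suz12 at 0.16. The ΔTE ratios include stromal-marked cells, which made up 2.59% of ΔTE DN1 and 7.32% of ΔTE DN2a. Their share in the ΔTE DN2a wells ran from 2.58% to 14.9%. All 7 differences were under 2-fold in each genotype.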

How the results depend on the processing

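No paired analysis was possible because each start was 1 library and the labels give no replicate numbers. The count of higher genes (427) became 753 with at most 10% mitochondrial UMIs, 62 with no such limit, 651 and 229 at a mean of at least 5 and 20 CPM, 1153 with 1 UMI in each library, 743 and 232 at 1.5-fold and 3-fold, and 85 without cells of 2 or more stromal UMIs. The count of lower genes (88) became 266 at 10%, 140 and 50 at 5 and 20 CPM, 368 with 1 UMI, 284 and 34 at 1.5-fold and 3-fold, and 48 with mitochondrial genes in the totals, which moved the median log2 ratio of all tested genes to 0.13. Leaving out each well in turn gave 401 to 464 higher and 89 to 108 lower genes. Alternatives chosen after seeing the data gave 85 higher genes without cells of 1 or more stromal UMIs, 75 with neither a mitochondrial limit nor stromal-marked cells, 113 higher and 141 lower at 10 to 20% without stromal-marked cells, and 47 lower without granulocyte and monocyte marked cells. The causes of these shifts were not tested.

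Without stromal-marked cells the log2 ratio of 127 of the 515 called genes turned sign, and named genes among them were Col6a1 (-0.46), Kitl (-0.36) and Masp1 (-0.59). Named genes that turned without cells of 1 or more stromal UMIs were Lama4 (-0.63), Aebp1 (-0.22) and Masp1 (-1.80). With no mitochondrial limit they were Mecom (-0.15) and Ebf1 (-0.37), and with stromal-marked cells left out as well Col6a1 (-0.44), Lama4 (-0.71), Aebp1 (-0.018), Bgn (-0.12), Ctnnd1 (-0.49), S1pr1 (-0.39), Ebf1 (-0.20) and Cxcl12 (-0.026). At most 10% mitochondrial UMIs, with 351 cells in the DN1 start, turned Lama4 (-0.25), Jun (-0.89) and Socs3 (-0.73). At 10 to 20% without stromal-marked cells Kitl (-1.45), Nsg1 (-0.71), Maf (-0.077) and Mecom (-0.011) turned, as did Col6a1, Lama4, Ston1 and Ctnnd1 (-0.13 each). Depth limits genes of a few UMIs, and counting intervals do not cover differences between cultures.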
